A study of Arabidopsis thaliana with 15 samples.

Results

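The triple mutant labelled ebs shl lhp1 was compared with the double mutant labelled ebs shl in whole Arabidopsis thaliana seedlings, to see which transcripts differ when lhp1 is added to an ebs shl background. The comparison rests on the 3 libraries of each label, 6 of the 15 libraries of the series, and on the 20477 of 33602 annotated loci that had enough counts to be tested. All seedlings were of the Col-0 accession and were 3 weeks old, kept under 8 h of light and 16 h of darkness on half-strength Murashige and Skoog plates. The labels name the mutations in each group and give no alleles, so both groups carry the ebs and shl labels and lhp1 is the added one. The other libraries are 3 each of emf1, lhp1 and wild type (WT). RNA was isolated with the miRNeasy Micro kit from the triple mutant and emf1, and with the RNeasy Plus Mini kit from the double mutant, lhp1 and WT. The kit therefore changes with the label in every difference between triple and double mutant, and the 2 cannot be told apart. Below, the libraries with these labels are called the labelled triple and the labelled double, or the triple and the double where both levels of a gene stand together.

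LHP1 is a chromodomain protein that binds histone H3 trimethylated at lysine 27, the mark laid down by Polycomb repressive complexes, and takes part in keeping marked genes silent. EBS and SHL are closely related proteins with a bromo-adjacent homology domain and a PHD finger that read methylation of histone H3. EMF1 is a plant protein that works with the Polycomb complexes, and mutants in this group of genes are known for early flowering and for floral genes active in vegetative tissue.

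Most transcripts differed between the labelled triple and the labelled double, in both directions with a median absolute log2 fold change of 1.02 among those called. By the quasi-likelihood F test of edgeR, with p-values adjusted after Benjamini and Hochberg and a threshold of 0.05, 13931 of the 20477 loci (68%) were called, 6721 higher (32.8%) and 7210 lower (35.2%) in the labelled triple. With a log2 fold change of at least 1 in either direction 7138 loci (34.9%) were called, 2885 higher (14.1%) and 4253 lower (20.8%). At 4-fold or more 951 were higher and 2233 lower. No count was seen in any labelled triple library for 83 loci called lower, and none in any labelled double library for 5 loci called higher. The 3 labelled triple libraries all lay above the 3 labelled double libraries in 7133 loci (34.8%) and all below them in 7692 (37.6%). The balance between directions depended on scaling: 48.2% of the calls were higher with TMM factors, 38.1% with upper-quartile factors (5298 higher and 8612 lower) and 58.9% with an offset for GC content and length (8143 higher and 5684 lower). The median log2 fold change over all tested loci was -0.03, -0.20 and 0.16 under these settings.

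**Figure D1:**
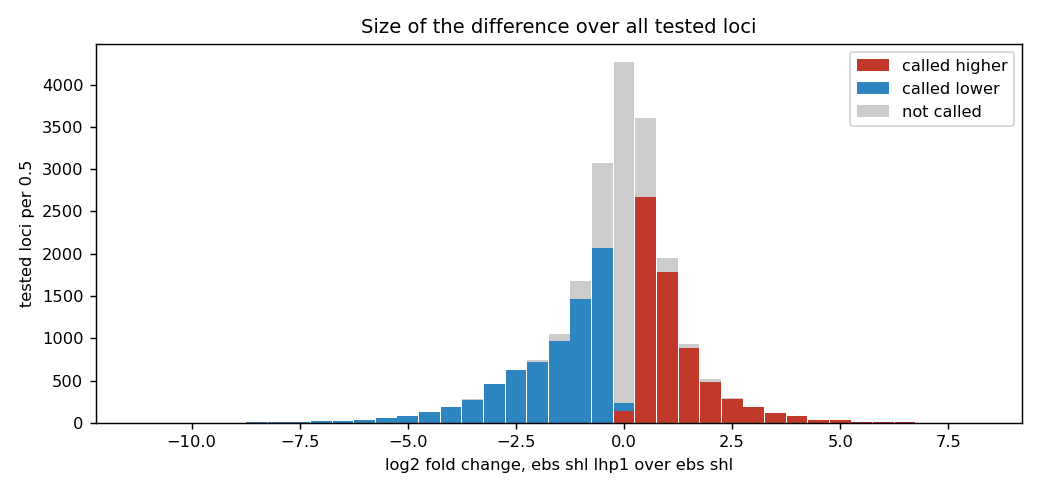
Number of tested loci per bin of 0.5 on the log2 scale for ebs shl lhp1 over ebs shl, with loci called higher in red, called lower in blue and not called in grey. The distribution centres near 0, with 2233 loci lower and 951 higher by 4-fold or more.

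The deposited counts summed to 11730989, 11751220 and 16236389 in the labelled triple and 14162434, 12695752 and 16247262 in the labelled double, and levels below are normalised CPM, the counts scaled to a common library size. Among loci with at least 5 CPM, the 3 repeats spanned over 2-fold for 5.94% of loci (843 of 14195) in the labelled triple and 1.39% (208 of 14959) in the labelled double. The first principal component of the 6 libraries held 85.3% of the variance and separated the labels. Nuclear ribosomal RNA took 0.987% to 1.68% of the counts in the labelled triple and 0.217% to 0.331% in the labelled double (exact permutation test, two-sided p = 0.1, the smallest that 3 against 3 allows). In emf1, made with the kit of the triple mutant, it took 0.594% to 0.829%. Against the mean of the other 2 libraries of its label, a library differed by over 2-fold for 6.56% to 8% of loci in the labelled triple, most in replicate 2, and for 1.26% to 2.67% in the labelled double, most in replicate 1. Libraries that decide the value of a gene are named beside it. The part of these library differences in the results was not tested.

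The transcripts of the mutated genes did not show the added label. LHP1 (AT5G17690) stood at 23.3, 20.7 and 19.3 CPM in the labelled triple, against 19.2, 18.9 and 19.96 CPM in the labelled double. The groups overlap, and the difference did not pass the test (log2 fold change 0.12, SE 0.09, adjusted p = 0.25, edgeR quasi-likelihood, Benjamini-Hochberg, n = 3 each). The same transcript averaged 10.5 CPM in the single mutant lhp1 and 19.8 CPM in WT. Its difference was 0.31 with the offset for GC content and length (adjusted p = 0.012) and -0.05 with upper-quartile scaling (adjusted p = 0.63). LHP1 overlaps a tested gene on the other strand, and whether the counting used strand is not given in the sources used here, so its level is uncertain. Because the labels give no alleles, a transcript at this level cannot settle whether the mutation is present. The libraries are therefore called by their labels throughout.

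EBS (AT4G22140) stood at 2.33, 1.99 and 2.51 CPM in the labelled triple, against 2.58, 3.36 and 1.67 CPM in the labelled double. Both groups lay far below WT (25.8 CPM) and overlap each other (log2 fold change -0.12, SE 0.21, adjusted p = 0.69). SHL (AT4G39100) stood at 192, 222 and 159.8 CPM in the labelled triple, against 204, 225 and 221 CPM in the labelled double, above the 40.9 CPM of WT in both groups. The groups overlap in part and the difference missed the threshold (log2 fold change -0.18, SE 0.11, adjusted p = 0.17), which it passed with upper-quartile scaling (-0.36, adjusted p = 0.0091) and without the labelled triple replicate 2 (-0.29, adjusted p = 0.044). EMF1 (AT5G11530) stood at 87.05, 73.9 and 71.7 CPM in the labelled triple, against 121, 116 and 117 CPM in the labelled double. Every labelled triple library lay below every labelled double library (log2 fold change -0.60, SE 0.08, adjusted p = 1.9e-05), and both groups lay above WT (27.96 CPM). The EMF1 call was lost with the offset for GC content and length (log2 fold change -0.01, adjusted p = 0.90).

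**Figure D2:**
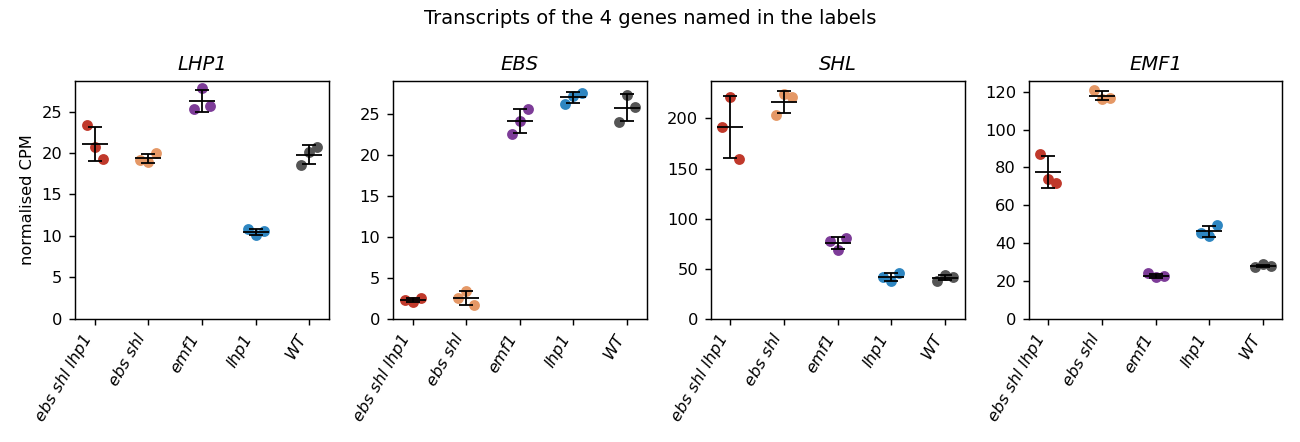
Normalised CPM of LHP1, EBS, SHL and EMF1 in each of the 15 libraries (points), with the mean and SD of the 3 libraries of a label (black). LHP1 is lower in lhp1 than in the other 4 labels, EBS is low in both ebs shl labels, and SHL and EMF1 are high in them.

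Calls were spread over the genome. Between 67.5% and 68.6% of tested loci were called on each of the 5 nuclear chromosomes. Among the 50 tested loci on each side of the mutated genes, 68 of 100 were called around LHP1, 65 around EBS and 73 around SHL, near the 68% over all loci.

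Of the called loci with a symbol, no overlap between groups and a mean of 5 CPM or more in 1 group, the 12 highest and the 12 lowest were examined, beginning with the highest. BCB (AT5G20230), which encodes a blue copper-binding protein, stood at 963, 1342 and 1186 CPM in the labelled triple, against 21.9, 11.6 and 5.91 CPM in the labelled double. The groups lie far apart, and replicate 1 was the highest of the labelled double (log2 fold change 6.47, SE 0.48, adjusted p = 2.1e-07). BCAT2 (AT1G10070), a branched-chain amino acid transaminase gene, stood at 393, 486 and 351 CPM in the labelled triple, against 10.5, 10.02 and 6.02 CPM in the labelled double. ASN1 (AT3G47340), encoding the glutamine-dependent asparagine synthetase induced in darkness, stood at 1313, 2393 and 1847 CPM in the labelled triple, against 84.2, 37.5 and 22.1 CPM in the labelled double. Both genes were separated between the groups without overlap (log2 fold change 5.54, SE 0.40, adjusted p = 1.8e-07 for BCAT2, and log2 fold change 5.27, SE 0.91, adjusted p = 0.00017 for ASN1). THA1 (AT1G08630), a threonine aldolase gene, averaged 273 ± 81.6 CPM in the labelled triple and 6.61 ± 1.97 CPM in the labelled double, and DIN2 (AT3G60140), a dark-inducible beta-glucosidase gene, averaged 192 ± 145 CPM in the labelled triple and 4.99 ± 1.69 CPM in the labelled double (SD, n = 3 each). Of the xyloglucan endotransglucosylase/hydrolase genes, which act on the cell wall, XTH24 (AT4G30270) averaged 3822 ± 1013 CPM in the labelled triple and 109 ± 20.9 CPM in the labelled double, XTH25 (AT5G57550) 21.1 CPM in the triple and 0.60 CPM in the double and XTR6 (AT4G25810) 153 CPM in the triple and 4.82 CPM in the double. The remaining genes of the highest 12 were the B-box gene BZS1 (AT4G39070, 26.1 CPM in the triple and 0.535 CPM in the double), the ROTUNDIFOLIA-like peptide gene RTFL21 (AT1G67265, 13.1 CPM in the triple and 0.236 CPM in the double), the receptor-like kinase gene ARCK1 (AT4G11890, 6.3 CPM in the triple and 0.146 CPM in the double) and the defensin-like gene PDF1.4 (AT1G19610, 65.04 CPM in the triple and 1.88 CPM in the double). All 12 had log2 fold changes of 4.99 to 6.47. Leaving out the labelled triple replicate 2 put the log2 fold change at 4.47 for DIN2. The log2 fold change without the labelled double replicate 1 was 7.07 for BCB, 5.96 for ASN1, 5.75 for PDF1.4 and 5.61 for XTR6.

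The 12 lowest, chosen in the same way, had few or no counts in the labelled triple. IRT1 (AT4G19690), the main iron transporter of the root surface, stood at 0.372, 0 and 0.198 CPM in the labelled triple, against 28.96, 32.1 and 39.02 CPM in the labelled double. It was near zero in every labelled triple library (log2 fold change -7.38, SE 0.59, adjusted p = 8.7e-07). CYP82C4 (AT4G31940), a cytochrome P450 gene that responds to iron supply, had a single count in the labelled triple and averaged 8.7 CPM in the labelled double, 275-fold [counting interval 56.7 to 12569.5] lower. BAT5 (AT4G12030), a transporter gene of aliphatic glucosinolate synthesis, stood at 0.93, 0.285 and 0.33 CPM in the labelled triple, against 30.3, 56.5 and 46.4 CPM in the labelled double, and again no library of either group came near the other (log2 fold change -6.46, SE 0.59, adjusted p = 8.3e-07). AOP2 (AT4G03060), an aliphatic glucosinolate side-chain gene, averaged 0.187 CPM in the triple and 13.4 CPM in the double, ESP (AT1G54040), a glucosinolate breakdown gene, 0.119 CPM in the triple and 13.3 CPM in the double, and GSTF11 (AT3G03190), a glutathione S-transferase gene, 0.16 CPM in the triple and 11.6 CPM in the double. ATSDI1 (AT5G48850), induced by sulphur deficiency, averaged 0.213 CPM in the triple and 17.3 CPM in the double. Genes of the wall and cuticle were WSD1 (AT5G37300), for wax ester synthesis (0.115 CPM in the triple and 14.7 CPM in the double), the extensin gene EXT10 (AT5G06640, 3 counts in the labelled triple, 169-fold [counting interval 46.02 to 658] lower), the laccase gene LAC11 (AT5G03260, 0.163 CPM in the triple and 17.5 CPM in the double) and GH9B8 (AT2G32990), of the glycosyl hydrolase 9 family (0.11 CPM in the triple and 11.9 CPM in the double). The jacalin lectin gene JAL23 (AT2G39330) averaged 0.116 CPM in the triple and 11.4 CPM in the double. Their log2 fold changes ran from -7.91 to -6.07, and adjusted p from 1.5e-07 to 2.0e-05. With no labelled triple replicate 1 in the fit, log2 fold changes were -8.04 for IRT1, -8.26 for WSD1, -7.09 for BAT5 and -8.11 for AOP2. Log2 fold changes of -9.98 for CYP82C4 were found without the labelled triple replicate 2. Without the labelled triple replicate 3 the log2 fold change was -7.29 for CYP82C4, -10.33 for EXT10, -7.9 for ESP, -8.3 for LAC11, -10.41 for GH9B8 and -5.52 for AOP2.

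Lists of genes with known roles were then counted, beside the 32.8% higher and 35.2% lower over all tested loci. The lists and their members were chosen with earlier results of these data known. Their shares are therefore a description and not independent of the data. Libraries of the labelled triple and double did not overlap for 72.4% of all tested loci. Members of a list are not independent, and no list was tested as a whole.

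**Figure D3:**
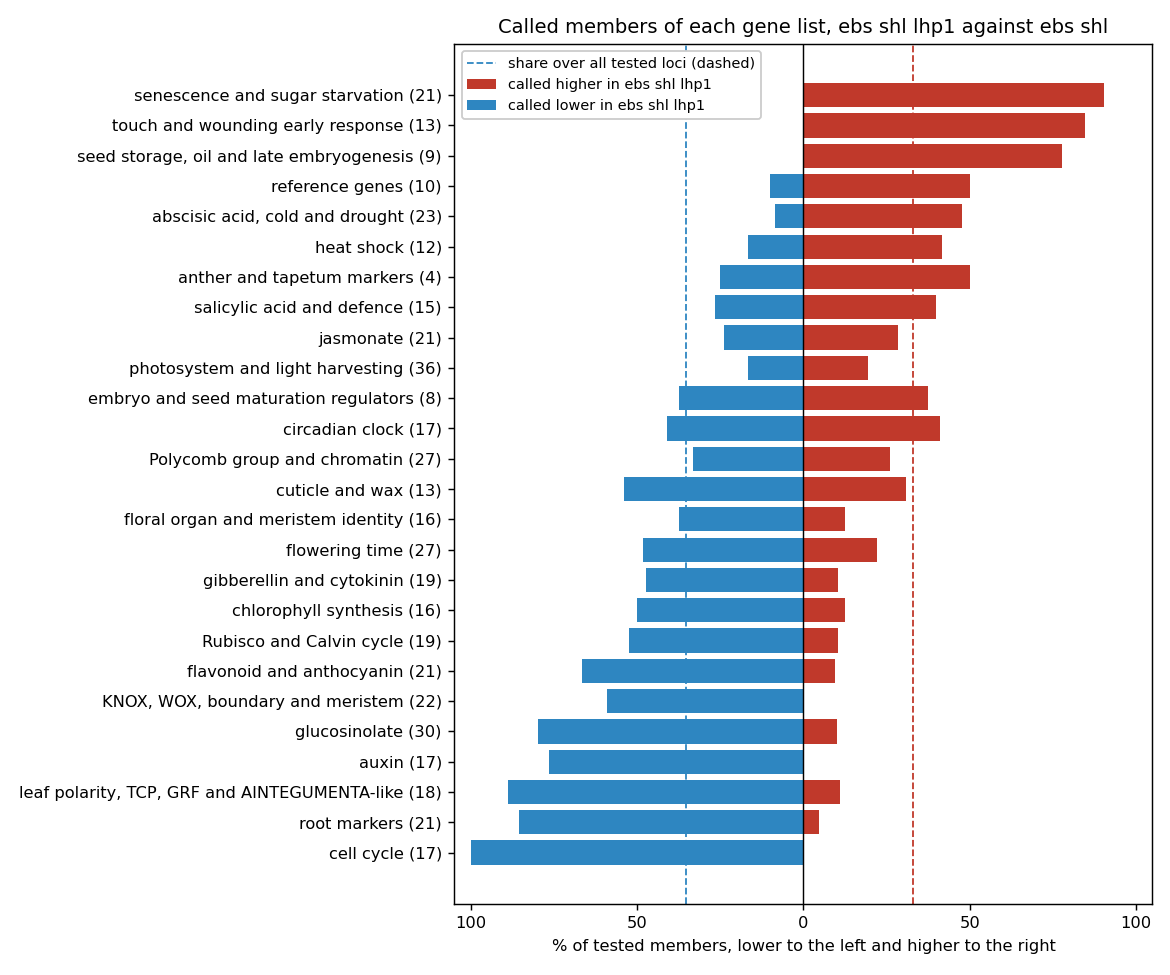
Share of the tested members of each of 26 gene lists that were called higher (right, red) or lower (left, blue) in ebs shl lhp1 than in ebs shl, with the number tested in brackets and the shares over all tested loci as dashed lines. Senescence and starvation genes were called higher in 19 of 21 and cell cycle genes lower in 17 of 17. The lists were chosen with earlier results of these data known.

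Floral genes did not move together. Of 20 genes for floral organ and meristem identity, 2 of 16 tested members were higher and 6 lower, with a median log2 fold change of -0.91. PI (AT5G20240), the class B organ gene for petals and stamens, stood at 374, 365 and 302 CPM in the labelled triple, against 87.8, 71.4 and 83.4 CPM in the labelled double. Every labelled triple library was above every labelled double library (log2 fold change 2.1, SE 0.16, adjusted p = 2.2e-07). Its class B partner AP3 (AT3G54340) stood at 24.1, 4.65 and 8.58 CPM in the labelled triple, against 15.3, 20.9 and 19.4 CPM in the labelled double, with replicate 1 the highest of all 6 and the groups overlapping (log2 fold change -0.58, SE 0.40, adjusted p = 0.21). AP1, LFY and FUL, which act in meristem identity, were lower. AP1 (AT1G69120) stood at 1.21, 0.19 and 0.726 CPM in the labelled triple, against 9.8, 13.5 and 10.6 CPM in the labelled double. The groups do not overlap (log2 fold change -3.97, SE 0.44, adjusted p = 3.7e-06). LFY (AT5G61850), the floral meristem regulator, averaged 0.323 ± 0.252 CPM in the labelled triple and 2.89 ± 0.877 CPM in the labelled double, and the AP1 relative FUL (AT5G60910) averaged 3.16 ± 1.35 CPM in the labelled triple and 22.5 ± 1.29 CPM in the labelled double (SD, n = 3 each). SEP3 (AT1G24260), a class E cofactor of the organ genes, stood at 31.2, 7.59 and 12.7 CPM in the labelled triple, against 102, 132 and 118 CPM in the labelled double. Replicate 1 of the labelled triple was the highest of its group and still below the labelled double (log2 fold change -2.78, SE 0.34, adjusted p = 8.2e-06). The other member called higher, SPT (AT4G36930), a carpel growth gene, averaged 7.02 CPM in the triple and 5.09 CPM in the double (log2 fold change 0.46, SE 0.14, adjusted p = 0.012). PI, AP3 and SPT were chosen after their values were seen. In the fit without the labelled triple replicate 1 the values were -3.49 for SEP3 and -1.44 for AP3 on the log2 scale. With the labelled triple replicate 3 left out, log2 fold changes of -3.89 for LFY were obtained. AP3 passed the threshold without that replicate 1 and with limma-voom. The call of SPT was lost with upper-quartile scaling (adjusted p of 0.086). The number called higher was 1 with upper-quartile scaling. Calls lower numbered 10 without the labelled triple replicate 1.

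Of 33 flowering time genes, 6 of 27 tested members were higher and 13 lower (median -0.36). The 6 members called higher, FLC, FLM, MAF2, SVP, TEM1 and TEM2, are known as repressors of flowering. Their share of the tested members was below the 32.8% over all tested loci. Repressors and promoters in the list were not counted apart. FLC (AT5G10140), the MADS-box repressor that vernalization silences through Polycomb, stood at 40.7, 71.99 and 33.9 CPM in the labelled triple, against 12.2, 16.9 and 14.5 CPM in the labelled double. No library overlaps (log2 fold change 1.75, SE 0.25, adjusted p = 3.4e-05). The repressor genes TEM1 (AT1G25560) and TEM2 (AT1G68840), which act on the florigen gene, were both higher. TEM1 averaged 136 ± 17.03 CPM in the labelled triple and 21.8 ± 11.3 CPM in the labelled double (SD, n = 3 each). TEM2 averaged 190.2 CPM in the triple and 41.9 CPM in the double. Both were highest in replicate 1 among the labelled double libraries (log2 fold change 2.63, SE 0.45, adjusted p = 0.00015 for TEM1, and log2 fold change 2.18, SE 0.51, adjusted p = 0.0018 for TEM2). The 4 squamosa promoter-binding genes tested, of the age pathway, were lower. SPL9 (AT2G42200) averaged 1.52 ± 0.97 CPM in the labelled triple and 11.8 ± 2.57 CPM in the labelled double, SPL5 (AT3G15270) 0.376 CPM in the triple and 3.35 CPM in the double and SPL15 (AT3G57920) 0.097 CPM in the triple and 2.37 CPM in the double (log2 fold change -2.88, SE 0.36, adjusted p = 1.1e-05 for SPL9). The flowering promoter AGL24 (AT4G24540) stood at 10.8, 14.3 and 14.1 CPM in the labelled triple, against 33.98, 33.8 and 38.97 CPM in the labelled double, without overlap (log2 fold change -1.44, SE 0.16, adjusted p = 3.6e-06). The MADS-box genes FLM (AT1G77080) and MAF2 (AT5G65050), relatives of FLC, and SVP (AT2G22540) had log2 fold changes of 0.27 for FLM, 0.41 for MAF2 and 0.44 for SVP. FLC, FLM, MAF2, SVP, TEM2 and AGL24 were chosen after their values were seen. The call of FLM was lost with upper-quartile scaling, without the filter, in a fit of the 6 libraries alone, without the labelled double replicate 1, without the labelled double replicate 3 and without the labelled triple replicate 1 (adjusted p 0.053 to 0.39). The call of MAF2 was lost with upper-quartile scaling (adjusted p of 0.1). When the labelled triple replicate 1 was left out, the log2 difference stood at -4.74 for SPL5. Omitting the labelled triple replicate 3 gave log2 fold changes of -3.5 for SPL9 and -5.42 for SPL15. Once the labelled double replicate 1 was dropped, log2 values were 2.84 for TEM2.

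Among 29 Polycomb group and chromatin genes, 7 of 27 tested members were higher and 9 lower (median -0.12), shares near or below those over all loci. CLF (AT2G23380), a histone methyltransferase of Polycomb repressive complex 2, stood at 11.3, 12.2 and 14.1 CPM in the labelled triple, against 23.8, 27.2 and 25.5 CPM in the labelled double. The labelled triple was lower in every library (log2 fold change -1.02, SE 0.12, adjusted p = 6.4e-06). ATX1 (AT2G31650), a trithorax-type methyltransferase gene that counters Polycomb, averaged 4.66 ± 1.04 CPM in the labelled triple and 12.5 ± 0.432 CPM in the labelled double (log2 fold change -1.4, SE 0.23, adjusted p = 0.0001), and the locus AT5G46910 4.78 CPM in the triple and 11.7 CPM in the double. MEA (AT1G02580), the Polycomb methyltransferase gene known from the endosperm, averaged 1.72 ± 1.56 CPM in the labelled triple and 0.139 ± 0.128 CPM in the labelled double, with replicate 2 of the labelled triple the highest (log2 fold change 3.45, SE 0.75, adjusted p = 0.0011). Leaving out the labelled triple replicate 2 put the log2 fold change at 2.46 for MEA. The log2 fold change without the labelled double replicate 1 was 4.05 for MEA. The direction of the list turned with scaling. Members called higher numbered 3 with upper-quartile scaling, 4 in a fit of the 6 libraries alone and without the labelled triple replicate 2, and 12 with the offset for GC content and length and with that offset and a replicate block. Lower calls were 3 with the offset for GC content and length and with that offset and a replicate block.

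All 17 tested cell cycle genes were called lower, with a median log2 fold change of -2.54 and a range of -3.43 to -1.65, and the libraries overlapped for none of them. MCM2 (AT1G44900), a subunit of the replication helicase, stood at 5.12, 3.51 and 6.67 CPM in the labelled triple, against 44.3, 42.6 and 42.98 CPM in the labelled double. PCNA1 (AT1G07370), the replication clamp, stood at 2.98, 2.37 and 4.69 CPM in the labelled triple, against 24.6, 21.7 and 24.9 CPM in the labelled double. In both genes the lowest labelled double library was several times the highest labelled triple library (log2 fold change -3.06, SE 0.22, adjusted p = 1.6e-07 for MCM2, and log2 fold change -2.79, SE 0.34, adjusted p = 8.3e-06 for PCNA1). Of the mitotic cyclin genes, CYCB1;3 (AT3G11520) averaged 0.52 CPM in the triple and 5.72 CPM in the double, CYCA1;1 (AT1G44110) 1.01 CPM in the triple and 11.6 CPM in the double, and CYCB2;2 (AT4G35620) 0.557 CPM in the triple and 5.25 CPM in the double. KN (AT1G08560), the cytokinesis syntaxin KNOLLE, averaged 6.42 CPM in the triple and 31.9 CPM in the double, and the G1 cyclin gene CYCD3;1 (AT4G34160) 7.42 CPM in the triple and 31.5 CPM in the double. CYCB1;1 (AT4G37490) had the smallest fall of the list (-1.65 on the log2 scale). PCNA1, KN, CYCD3;1 and CYCB1;1 were chosen after their values were seen. With no labelled triple replicate 3 in the fit, log2 fold changes were -4.34 for CYCA1;1 and -3.77 for CYCB2;2.

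Of 20 genes for leaf polarity and growth, 2 of 18 tested members were higher and 16 lower (median -1.56). TCP4 (AT3G15030), which drives leaf cells out of division, stood at 5.58, 5.98 and 8.249 CPM in the labelled triple, against 30.8, 35.2 and 39.1 CPM in the labelled double. ANT (AT4G37750), a gene that promotes organ growth, stood at 5.95, 6.73 and 9.31 CPM in the labelled triple, against 31.7, 37.4 and 35.96 CPM in the labelled double. Both were lower without overlap (log2 fold change -2.39, SE 0.26, adjusted p = 3.4e-06 for TCP4, and log2 fold change -2.24, SE 0.22, adjusted p = 1.6e-06 for ANT). The upper-side gene REV (AT5G60690) averaged 13.7 ± 3.59 CPM in the labelled triple and 55.8 ± 3.81 CPM in the labelled double, and TCP2 (AT4G18390) 10.3 CPM in the triple and 37.4 CPM in the double. Of the root stem cell genes, PLT1 (AT3G20840) averaged 0.279 CPM in the triple and 1.51 CPM in the double, and PLT2 (AT1G51190) had 2 counts in the triple and 58 in the double (22.6-fold [counting interval 5.89 to 188] lower). The 2 members called higher were the lower-side genes YAB5 (AT2G26580, 3.55 CPM in the triple and 1.58 CPM in the double, log2 fold change 1.19, SE 0.25, adjusted p = 0.00086) and KAN1 (AT5G16560, 15.2 CPM in the triple and 11.8 CPM in the double, log2 fold change 0.37, SE 0.10, adjusted p = 0.0046). REV, TCP2, YAB5 and KAN1 were chosen after their values were seen. Log2 fold changes of -2.95 for PLT1 were found without the labelled triple replicate 3. The call of KAN1 was lost with upper-quartile scaling (adjusted p of 0.1). The number called higher was 1 with upper-quartile scaling.

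Of 26 KNOX, WOX, boundary and meristem genes, 0 of 22 tested members were higher and 13 lower (median -0.68). The homeobox gene ATH1 (AT4G32980) averaged 5.43 ± 1.96 CPM in the labelled triple and 25.6 ± 1.72 CPM in the labelled double (log2 fold change -2.21, SE 0.20, adjusted p = 8.2e-07). WOX1 (AT3G18010), for outgrowth of the leaf blade, averaged 0.351 CPM in the triple and 3.13 CPM in the double, WOX4 (AT1G46480), for the vascular cambium, 1.71 CPM in the triple and 6.32 CPM in the double, and the boundary gene CUC3 (AT1G76420) 0.542 CPM in the triple and 4.2 CPM in the double. Calls higher numbered 1 with the offset for GC content and length.

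Of 19 auxin genes, 0 of 17 tested members were higher and 13 lower (median -1.65). The auxin synthesis gene TAA1 (AT1G70560) averaged 8.08 ± 2.51 CPM in the labelled triple and 37.3 ± 7.36 CPM in the labelled double (log2 fold change -2.2, SE 0.22, adjusted p = 1.7e-06). The root carrier gene PIN2 (AT5G57090) averaged 1.92 CPM in the triple and 16.5 CPM in the double, and the response repressor gene IAA19 (AT3G15540) 0.959 CPM in the triple and 10.04 CPM in the double. Another of that family, IAA29 (AT4G32280), averaged 0.186 CPM in the triple and 1.8 CPM in the double. IAA6 (AT1G52830) had no count in the labelled triple and 1.13 CPM in the labelled double, at least 13.7-fold lower at a floor of 3 counts over the group. TAA1 and PIN2 were chosen after their values were seen. Without the labelled triple replicate 3 the log2 fold change was -4.13 for PIN2, -4.02 for IAA19 and -5.04 for IAA29. Members called higher numbered 2 with the offset for GC content and length and with that offset and a replicate block.

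Among 19 gibberellin and cytokinin genes, 2 of 19 tested members were higher and 9 lower (median -1.22). The gibberellin synthesis gene GA20OX1 (AT4G25420) averaged 0.232 ± 0.13 CPM in the labelled triple and 4.78 ± 0.847 CPM in the labelled double (log2 fold change -4.38, SE 0.55, adjusted p = 1.1e-05). GA3OX2 (AT1G80340), of the last synthesis step, had no count in the labelled triple, at least 9.12-fold lower, and the inactivation gene GA2OX1 (AT1G78440) had 1, 67.5-fold [counting interval 9.19 to 2119.8] lower. CKX3 (AT5G56970), which degrades cytokinin, had 3 counts, 13.6-fold [counting interval 5.09 to 77.7] lower. The cytokinin response regulators differed in sign, with ARR15 (AT1G74890) at 0.598 CPM in the triple and 7.38 CPM in the double (log2 fold change -3.55, SE 0.57, adjusted p = 8.7e-05) and ARR5 (AT3G48100) at 17.3 CPM in the triple and 6.2 CPM in the double (log2 fold change 1.5, SE 0.47, adjusted p = 0.011). The second member called higher was GA2OX2 (AT1G30040, 8.33 CPM in the triple and 3.67 CPM in the double). ARR15, ARR5 and GA2OX2 were chosen after their values were seen. In the fit without the labelled triple replicate 1 the values were 0.48 for GA2OX2 on the log2 scale. With the labelled triple replicate 2 left out, log2 fold changes of -7.23 for CKX3 were obtained. When the labelled triple replicate 3 was left out, the log2 difference stood at -7.41 for GA2OX1, -3.12 for CKX3 and 0.79 for ARR5. The call of ARR5 was lost without the labelled triple replicate 3 (adjusted p of 0.12). The call of GA2OX2 was lost in a fit of the 6 libraries alone, without the labelled double replicate 3 and without the labelled triple replicate 1 (adjusted p 0.07 to 0.19). Higher calls were 1 in a fit of the 6 libraries alone, without the labelled double replicate 3 and without the labelled triple replicate 3.

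Of 24 root markers, 1 of 21 tested members were higher and 18 lower (median -2.52), and their summed level was 107 to 132 CPM in the labelled triple and 219 to 260 CPM in the labelled double. These whole seedlings do not show whether the number of root cells or the RNA per root cell differed. The cause of the lower root markers was not tested, and the RNA kit changes with the label here too. FRO2 (AT1G01580), the ferric reductase that acts with IRT1, stood at 0.465, 0.664 and 0.462 CPM in the labelled triple, against 11.7, 22.3 and 18.3 CPM in the labelled double. The groups do not overlap (log2 fold change -5.04, SE 0.47, adjusted p = 1.1e-06). AGP30 (AT2G33790), an arabinogalactan protein gene of roots, had no count in the labelled triple, against 1.38, 2.27 and 3.18 CPM in the labelled double, at least 27.6-fold lower at a floor of 3 counts over the group. The root hair gene COBL9 (AT5G49270) averaged 0.129 CPM in the triple and 3.02 CPM in the double, the epidermal fate gene WER (AT5G14750) had 3 counts in the triple and 63 in the double, and the radial patterning gene SHR (AT4G37650) averaged 6.2 ± 1.53 CPM in the labelled triple and 20.1 ± 1.59 CPM in the labelled double. The member called higher was MYB36 (AT5G57620), an endodermis regulator (5.83 CPM in the triple and 2.89 CPM in the double, log2 fold change 1.03, SE 0.29, adjusted p = 0.0064). WER, SHR and MYB36 were chosen after their values were seen. The emf1 libraries had 0 CPM of IRT1, 0.787 of FRO2 and 0 of AGP30, and the root markers summed to 69.6 to 86.4 CPM there, beside 209 to 290 CPM in WT. Omitting the labelled triple replicate 2 gave log2 fold changes of -4.8 for WER.

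Glucosinolates are the sulphur-rich defence compounds of crucifers, with an aliphatic branch made from methionine and an indolic branch made from tryptophan. All 30 listed genes were tested and 24 were lower and 3 higher (median -3.29). The aliphatic regulator MYB28 (AT5G61420) averaged 2.31 ± 1.74 CPM in the labelled triple and 59.6 ± 10.8 CPM in the labelled double (log2 fold change -4.7, SE 0.45, adjusted p = 1.2e-06), and its relative MYB29 (AT5G07690) 0.451 CPM in the triple and 16.8 CPM in the double. CYP79F1 (AT1G16410), the first enzyme of the aliphatic core, stood at 9.49, 0.285 and 3.37 CPM in the labelled triple, against 71.9, 126 and 90.5 CPM in the labelled double. The myrosinase gene TGG1 (AT5G26000) stood at 125, 68.1 and 231 CPM in the labelled triple, against 1119, 1377 and 1101 CPM in the labelled double. Its relative TGG2 (AT5G25980) stood at 23.7, 0.759 and 6.996 CPM in the labelled triple, against 411, 503 and 394 CPM in the labelled double. The groups do not overlap for any of these 3, and the labelled triple libraries differ among themselves by far more than the labelled double libraries do (log2 fold change -3.08, SE 0.36, adjusted p = 6.5e-06 for TGG1, and log2 fold change -5.39, SE 0.82, adjusted p = 6.0e-05 for TGG2). The 3 genes called higher belong to the indolic branch, and the members called lower were not counted by branch. MYB51 (AT1G18570), an indolic regulator, stood at 8.46, 18.02 and 67.98 CPM in the labelled triple, against 7.41, 3.51 and 3.57 CPM in the labelled double. CYP81F2 (AT5G57220), which modifies indolic glucosinolates, stood at 9.3, 39.7 and 86.9 CPM in the labelled triple, against 5.59, 2.71 and 4.13 CPM in the labelled double. In both, replicate 3 was the highest of the labelled triple and replicate 1 close to the labelled double (log2 fold change 2.72, SE 0.80, adjusted p = 0.0082 for MYB51, and log2 fold change 3.45, SE 0.90, adjusted p = 0.0039 for CYP81F2). PEN2 (AT2G44490), the myrosinase for indolic glucosinolates, averaged 312 ± 72.8 CPM in the labelled triple and 119 ± 7.85 CPM in the labelled double (log2 fold change 1.39, SE 0.26, adjusted p = 0.00035). BAT5, AOP2 and ESP, described above, belong to the same list. MYB28, MYB29, CYP79F1, TGG1 and the 3 genes called higher were chosen after their values were seen. Once the labelled triple replicate 1 was dropped, log2 values were -5.33 for MYB28, -6.35 for MYB29, -5.55 for CYP79F1 and -6.7 for TGG2. Leaving out the labelled triple replicate 3 put the log2 fold change at 1.45 for MYB51 and 2.55 for CYP81F2. The call of MYB51 was lost without the labelled triple replicate 3 (adjusted p of 0.096).

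Of 25 flavonoid and anthocyanin genes, 2 of 21 tested members were higher and 14 lower, with a median of -2.66, or -2.45 with genes lacking counts in 1 group set at their bound. FLS1 (AT5G08640), the flavonol synthase gene, stood at 2.6, 4.84 and 3.37 CPM in the labelled triple, against 33.2, 42.7 and 44.3 CPM in the labelled double. The groups do not overlap (log2 fold change -3.48, SE 0.33, adjusted p = 1.2e-06). MYB111 (AT5G49330), a flavonol regulator, had 1 count in the labelled triple, 42.6-fold [counting interval 8.22 to 1908] lower. Of the bHLH regulators, EGL3 (AT1G63650) averaged 0.751 CPM in the triple and 12.1 CPM in the double, and GL3 (AT5G41315) had 3 counts in the triple and 88 in the double (23.9-fold [counting interval 7.45 to 111] lower). The anthocyanin enzyme gene LDOX (AT4G22880) had 2 counts (21.3-fold [counting interval 5.25 to 169] lower) and the malonyltransferase gene 5MAT (AT3G29590) none (at least 6.46-fold lower). The 2 members called higher were MYBL2 (AT1G71030), a repressor of anthocyanin synthesis (215 ± 23.1 CPM in the labelled triple and 85.4 ± 28.4 CPM in the labelled double), and TTG1 (AT5G24520), a WD40 partner of the bHLH regulators (62.6 CPM in the triple and 39.3 CPM in the double). FLS1, EGL3, MYBL2 and TTG1 were chosen after their values were seen. The log2 fold change without the labelled triple replicate 1 was -7.26 for MYB111. With no labelled triple replicate 3 in the fit, log2 fold changes were -4.57 for MYB111, -4.66 for EGL3 and -5.03 for GL3.

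Of 15 cuticle and wax genes, 4 of 13 tested members were higher and 7 lower (median -0.34). CER1 (AT1G02205), needed for alkane synthesis, averaged 10.4 ± 3.68 CPM in the labelled triple and 51.2 ± 2.57 CPM in the labelled double (log2 fold change -2.3, SE 0.43, adjusted p = 0.00035), and CER4 (AT4G33790), for primary alcohols, had 1 count in the labelled triple (89.2-fold [counting interval 17.7 to 3998] lower). MYB96 (AT5G62470), a wax regulator, averaged 31.4 CPM in the triple and 7.74 CPM in the double, CER6 (AT1G68530), for fatty acid elongation, 316 CPM in the triple and 179 CPM in the double, CER3 (AT5G57800), which acts with CER1, 137 CPM in the triple and 112 CPM in the double and the wax exporter gene CER5 (AT1G51500) 139 CPM in the triple and 119.8 CPM in the double. CER6, CER3 and CER5 were chosen after their values were seen. Log2 fold changes of -8.33 for CER4 were found without the labelled triple replicate 1. Without the labelled triple replicate 3 the log2 fold change was -5.64 for CER4 and 1.39 for MYB96. The call of CER3 was lost with upper-quartile scaling, without the labelled double replicate 2, without the labelled double replicate 3 and without the labelled triple replicate 3 (adjusted p 0.074 to 0.34). The call of CER5 was lost with upper-quartile scaling, without the filter, in a fit of the 6 libraries alone, without the labelled double replicate 1, without the labelled double replicate 3 and without the labelled triple replicate 3 (adjusted p 0.051 to 0.66). The number called higher was 2 with upper-quartile scaling, without the labelled double replicate 3 and without the labelled triple replicate 3.

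Genes of senescence and sugar starvation were mostly higher. Of 22 listed genes, 19 of 21 tested members were higher and 0 lower (median 2.73), and in all 19 the libraries did not overlap. DIN10 (AT5G20250), a raffinose synthase family gene induced in darkness, stood at 4424, 5283 and 3582 CPM in the labelled triple, against 353, 138 and 109.8 CPM in the labelled double. DIN1 (AT4G35770), also known as SEN1, stood at 1358, 1276 and 967 CPM in the labelled triple, against 106, 56.4 and 52.5 CPM in the labelled double. In both genes replicate 1 was the highest of the labelled double and still below each labelled triple library (log2 fold change 4.47, SE 0.89, adjusted p = 0.00053 for DIN10, and log2 fold change 4.07, SE 0.60, adjusted p = 4.5e-05 for DIN1). Genes of leucine, isoleucine and valine breakdown in mitochondria were part of it. MCCA (AT1G03090), a subunit of methylcrotonyl-CoA carboxylase, stood at 416, 462 and 415 CPM in the labelled triple, against 31.5, 18.3 and 16.1 CPM in the labelled double. IVD (AT3G45300), isovaleryl-CoA dehydrogenase, averaged 443 ± 84.7 CPM in the labelled triple and 29.7 ± 4.5 CPM in the labelled double, and DIN4 (AT3G13450), of the branched-chain keto acid dehydrogenase, 211 CPM in the triple and 16.2 CPM in the double. The senescence-associated gene SAG21 (AT4G02380) averaged 297 ± 54.4 CPM in the labelled triple and 38.8 ± 9.12 CPM in the labelled double. DIN1, MCCA, IVD, DIN4 and SAG21 were chosen after their values were seen. In emf1, of the same RNA kit, DIN10 averaged 3413 CPM, BCAT2 236 and MCCA 279, beside 188, 2.31 and 20.1 CPM in WT. For other genes, such as CCA1 and RBCS1B, emf1 did not follow the labelled triple. These labels were not compared over all loci here. In the fit without the labelled double replicate 1 the values were 5.16 for DIN10 on the log2 scale.

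Early touch and wounding genes, which can respond within minutes to handling, were called higher in 11 of 13 tested members, lower in 0 (15 listed, median 2.63). The labelled libraries spread widely: the list summed to 800, 1530 and 2982 CPM in the labelled triple and 551, 141 and 139 CPM in the labelled double. TCH3 (AT2G41100), a calmodulin-like gene, stood at 237, 519 and 669.8 CPM in the labelled triple, against 81.2, 17.04 and 17.8 CPM in the labelled double. TCH4 (AT5G57560), a xyloglucan endotransglucosylase/hydrolase gene, stood at 291, 540.3 and 548 CPM in the labelled triple, against 80.7, 33.1 and 28.3 CPM in the labelled double. The transcription factor gene ERF6 (AT4G17490) stood at 12.2, 25.6 and 95.4 CPM in the labelled triple, against 10.3, 1.24 and 2.06 CPM in the labelled double. Replicate 1 was the highest of the labelled double in all 3 genes and replicate 3 the highest of the labelled triple (log2 fold change 3.62, SE 0.74, adjusted p = 0.0007 for TCH3, and log2 fold change 3.29, SE 0.81, adjusted p = 0.0025 for ERF6). The calmodulin-like gene CML38 (AT1G76650) averaged 18.19 CPM in the triple and 1.48 CPM in the double. For only 5 of the 13 members did the libraries not overlap. In emf1 the list summed to 1018 to 1573 CPM, and in WT to 155 to 495. With the labelled triple replicate 3 left out, log2 fold changes of 2.05 for ERF6 and 2.63 for CML38 were obtained. When the labelled double replicate 1 was left out, the log2 difference stood at 4.77 for TCH3, 3.91 for TCH4, 4.72 for ERF6 and 4.35 for CML38. Calls higher numbered 7 in a fit of the 6 libraries alone, 6 without the labelled double replicate 2 and without the labelled double replicate 3, and 5 without the labelled triple replicate 3.

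Hormone and stress lists were mixed. Of 25 abscisic acid, cold and drought genes, 11 of 23 tested members were higher and 2 lower (median 0.47). ABI5 (AT2G36270), a bZIP factor of the abscisic acid response, stood at 18.4, 2.09 and 4.62 CPM in the labelled triple, against 0.691, 1.46 and 1.28 CPM in the labelled double, and RD29B (AT5G52300), a desiccation gene, at 9.86, 4.08 and 5.61 CPM in the labelled triple, against 0.251, 1.39 and 1.11 CPM in the labelled double. Replicate 1 was the highest labelled triple library in both (log2 fold change 2.86, SE 0.68, adjusted p = 0.002 for ABI5, and log2 fold change 2.82, SE 0.47, adjusted p = 0.00013 for RD29B). CYP707A3 (AT5G45340), which breaks down abscisic acid, averaged 16.3 CPM in the triple and 2.8 CPM in the double, and CBF2 (AT4G25470), a cold regulator, stood at 0.186, 0.379 and 9.7 CPM in the labelled triple, against 0.126, 0.0731 and 0 CPM in the labelled double, where 1 labelled triple library carried the difference. The 2 members called lower were RD29A (AT5G52310, 11.4 CPM in the triple and 33.3 CPM in the double) and COR15B (AT2G42530, 0.781 CPM in the triple and 3.4 CPM in the double), both cold-induced and chosen after their values were seen. Omitting the labelled triple replicate 1 gave log2 fold changes of 1.59 for ABI5. Once the labelled triple replicate 3 was dropped, log2 values were 1.34 for CYP707A3, 2.01 for CBF2 and -2.12 for RD29A. Leaving out the labelled double replicate 1 put the log2 fold change at 6.46 for CBF2. The log2 fold change without the labelled double replicate 3 was 5.02 for CBF2. The call of CBF2 was lost without the labelled triple replicate 3 (adjusted p of 0.058). The call of RD29A was lost with the offset for GC content and length, with that offset and a replicate block, without the labelled double replicate 2, without the labelled double replicate 3 and without the labelled triple replicate 2 (adjusted p 0.066 to 0.092). Members called lower numbered 1 with the offset for GC content and length, with that offset and a replicate block, without the labelled double replicate 2, without the labelled double replicate 3 and without the labelled triple replicate 2.

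Of 15 heat shock genes, 5 of 12 tested members were higher and 2 lower (median 1.24). The heat shock factor gene HSFA7A (AT3G51910) stood at 97.4, 88.96 and 54.5 CPM in the labelled triple, against 14.6, 9.07 and 6.02 CPM in the labelled double, without overlap (log2 fold change 3.02, SE 0.53, adjusted p = 0.00019). The chaperone gene HSP90.1 (AT5G52640) averaged 142 CPM in the triple and 39.98 CPM in the double, HSP70 (AT3G12580) 397 CPM in the triple and 177 CPM in the double, the coactivator gene MBF1C (AT3G24500) 32.5 CPM in the triple and 11.1 CPM in the double and the small heat shock protein gene HSP17.4 (AT3G46230) 1.45 CPM in the triple and 0.113 CPM in the double. The 2 members called lower were HSP18.2 (AT5G59720, 0.702 CPM in the triple and 4.2 CPM in the double) and AT1G52560 (0.202 CPM in the triple and 1.1 CPM in the double). HSP90.1, HSP70 and MBF1C were chosen after their values were seen. With no labelled triple replicate 2 in the fit, log2 fold changes were -3.69 for AT1G52560. Log2 fold changes of 4.42 for HSP17.4 were found without the labelled double replicate 2. The call of HSP70 was lost with upper-quartile scaling, without the labelled double replicate 1, without the labelled double replicate 2 and without the labelled triple replicate 2 (adjusted p 0.052 to 0.13). The call of MBF1C was lost without the labelled double replicate 2, without the labelled double replicate 3, without the labelled triple replicate 1 and without the labelled triple replicate 2 (adjusted p 0.05 to 0.084). The call of AT1G52560 was lost without the labelled double replicate 1, without the labelled triple replicate 1 and without the labelled triple replicate 3 (adjusted p 0.071 to 0.083). Higher calls were 8 in a fit of the 6 libraries alone, and 3 without the labelled double replicate 2 and without the labelled triple replicate 2. The number called lower was 1 without the labelled double replicate 1, without the labelled triple replicate 1 and without the labelled triple replicate 3.

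Of 20 salicylic acid and defence genes, 6 of 15 tested members were higher and 4 lower (median -0.09). SARD1 (AT1G73805), a regulator of salicylic acid synthesis, averaged 5.96 ± 2.67 CPM in the labelled triple and 0.893 ± 0.76 CPM in the labelled double (log2 fold change 2.75, SE 0.66, adjusted p = 0.0022). Among the 6 members called higher its log2 fold change was the highest, and the others are not named. Lower were the pathogenesis-related gene PR5 (AT1G75040, 1.11 ± 0.186 CPM in the labelled triple and 8.86 ± 1.03 CPM in the labelled double), PBS3 (AT5G13320), for salicylic acid synthesis (0.647 CPM in the triple and 4.35 CPM in the double), FMO1 (AT1G19250), of systemic resistance, with 3 counts in the triple and 65 in the double, and the isochorismate synthase gene ICS1 (AT1G74710, 14.9 CPM in the triple and 18.6 CPM in the double, chosen after its values were seen). Without the labelled triple replicate 1 the log2 fold change was -3.53 for PBS3 and -4.81 for FMO1. In the fit without the labelled triple replicate 3 the values were -2.2 for PBS3 and -3.18 for FMO1 on the log2 scale. With the labelled double replicate 1 left out, log2 fold changes of 3.72 for SARD1 were obtained. The call of ICS1 was lost without the filter, in a fit of the 6 libraries alone, with the offset for GC content and length, with that offset and a replicate block, without the labelled double replicate 1, without the labelled double replicate 3 and without the labelled triple replicate 2 (adjusted p 0.051 to 0.39). Calls lower numbered 2 in a fit of the 6 libraries alone.

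Of 24 jasmonate genes, 6 of 21 tested members were higher and 5 lower (median 0.06). VSP2 (AT5G24770), a vegetative storage protein gene, stood at 34.2, 8.63 and 7.72 CPM in the labelled triple, against 64.6, 83.6 and 61.7 CPM in the labelled double, with replicate 1 the highest of the labelled triple but below the labelled double (log2 fold change -2.07, SE 0.48, adjusted p = 0.0018). VSP1 (AT5G24780) averaged 8.22 CPM in the triple and 22.1 CPM in the double, the methyltransferase gene JMT (AT1G19640) 0.448 CPM in the triple and 6.21 CPM in the double, the synthesis gene AOC4 (AT1G13280) 9.52 CPM in the triple and 22.4 CPM in the double, and OPR3 (AT2G06050), of a later step, 20.96 CPM in the triple and 29.4 CPM in the double. The repressor gene JAZ7 (AT2G34600) was higher (3.78 ± 0.652 CPM in the labelled triple and 0.305 ± 0.255 CPM in the labelled double). It had the highest log2 fold change of the 6 members called higher, and the others are not named. AOC4 and OPR3 were chosen after their values were seen. When the labelled triple replicate 1 was left out, the log2 difference stood at -3.08 for VSP2, -2.48 for VSP1 and -5.21 for JMT. Omitting the labelled double replicate 1 gave log2 fold changes of 4.47 for JAZ7. The call of VSP1 was lost in a fit of the 6 libraries alone (adjusted p of 0.052). The call of OPR3 was lost with the offset for GC content and length, with that offset and a replicate block, without the labelled double replicate 2, without the labelled double replicate 3, without the labelled triple replicate 1, without the labelled triple replicate 2 and without the labelled triple replicate 3 (adjusted p 0.064 to 0.13). Members called higher numbered 3 with upper-quartile scaling.

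All 36 photosystem and light harvesting genes were tested, 7 were higher, 6 lower and 23 not called, with a range of -0.56 to 1.07 and a median of 0.05. LHCB1.3 (AT1G29930), the most abundant transcript of the list, stood at 19526, 16628 and 19596 CPM in the labelled triple, against 15092, 18557 and 17398 CPM in the labelled double. The groups overlap (log2 fold change 0.13, SE 0.10, adjusted p = 0.27), its sign turned with upper-quartile scaling (-0.05), and the difference passed the threshold with the offset for GC content and length (0.32, adjusted p = 0.032) and with that offset and a replicate block (0.32, adjusted p = 0.044). It was chosen after its values were seen and has a near-identical copy, LHCB1.2, so reads of the 2 may be split. Among the called members LHCB1.4 (AT2G34430) averaged 1808 ± 188 CPM in the labelled triple and 864 ± 54.6 CPM in the labelled double, LHCB1.5 (AT2G34420) 10697 CPM in the triple and 6201 CPM in the double, PSBR (AT1G79040) 3509 CPM in the triple and 2271 CPM in the double and LHCB1.2 (AT1G29910) 3129.7 CPM in the triple and 4606 CPM in the double. The direction of this list depended on scaling. Higher calls were 3 with upper-quartile scaling. The number called lower was 14 with upper-quartile scaling, and 2 in a fit of the 6 libraries alone, without the labelled double replicate 2 and without the labelled triple replicate 2.

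Of the Rubisco and Calvin cycle genes, 2 of 19 tested members were higher and 10 lower (19 listed, median -0.31). The Rubisco small subunit gene RBCS2B (AT5G38420) stood at 859.9, 683 and 1009.8 CPM in the labelled triple, against 1963, 2378 and 2146 CPM in the labelled double, without overlap (log2 fold change -1.35, SE 0.16, adjusted p = 6.8e-06). RBCS1B (AT5G38430), of the same family, averaged 739 CPM in the triple and 1419 CPM in the double, and SBPASE (AT3G55800), sedoheptulose-bisphosphatase, 594 CPM in the triple and 989 CPM in the double. The 2 higher were CP12-1 (AT2G47400), a regulator of the cycle (884 CPM in the triple and 450.4 CPM in the double), and the epimerase gene RPE (AT5G61410, 772 CPM in the triple and 520.0 CPM in the double, chosen after its values were seen). Calls lower numbered 4 with the offset for GC content and length, 3 with that offset and a replicate block, and 6 without the labelled triple replicate 2. Of 16 chlorophyll synthesis genes, 2 of 16 tested members were higher and 8 lower (median -0.25). PORA (AT5G54190), a protochlorophyllide reductase gene, stood at 0.558, 0.948 and 3.89 CPM in the labelled triple, against 29.6, 26.3 and 30.6 CPM in the labelled double. The regulator GLK1 (AT2G20570) stood at 43.8, 25.7 and 38.4 CPM in the labelled triple, against 176, 220.0 and 253 CPM in the labelled double. Both are clearly separated (log2 fold change -3.88, SE 0.50, adjusted p = 1.4e-05 for PORA, and log2 fold change -2.59, SE 0.25, adjusted p = 1.3e-06 for GLK1). PCB2 (AT5G18660), of a reduction step, averaged 52.97 CPM in the triple and 108 CPM in the double and GUN4 (AT3G59400), an activator of the first committed step, 174 CPM in the triple and 342 CPM in the double, while the methyltransferase gene CHLM (AT4G25080, 402 CPM in the triple and 299.5 CPM in the double) and the magnesium chelatase subunit gene CHLI2 (AT5G45930, 75.1 CPM in the triple and 61.8 CPM in the double), the 2 called higher, were chosen after their values were seen. Once the labelled triple replicate 3 was dropped, log2 values were -5.25 for PORA. The call of CHLI2 was lost with upper-quartile scaling, without the labelled double replicate 1 and without the labelled triple replicate 3 (adjusted p 0.089 to 0.33). Members called higher numbered 1 with upper-quartile scaling, without the labelled double replicate 1 and without the labelled triple replicate 3. Lower calls were 13 with upper-quartile scaling, and 5 with the offset for GC content and length and with that offset and a replicate block.

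Of 26 seed storage, oil and late embryogenesis genes only 9 could be tested, 7 higher and 0 lower (median 1.41), and a gene that passed the filter only through the group where it is high had to differ. M17 (AT2G41260), a late embryogenesis gene, stood at 72.4, 101 and 72.8 CPM in the labelled triple, against 14.6, 17.3 and 17.62 CPM in the labelled double. The groups do not overlap (log2 fold change 2.31, SE 0.43, adjusted p = 0.00032). The late embryogenesis gene EM6 (AT2G40170) averaged 2.19 CPM in the triple and 0.284 CPM in the double, EM1 (AT3G51810) had 84 counts in the triple and 1 in the double (109-fold [counting interval 19.1 to 4377] higher), and LEA4-5 (AT5G06760) averaged 7.91 CPM in the triple and 0.668 CPM in the double with replicate 1 the highest. Leaving out the labelled triple replicate 1 put the log2 fold change at 2.31 for EM6 and 1.88 for LEA4-5. The log2 fold change without the labelled double replicate 1 was 8.04 for EM1. With no labelled double replicate 2 in the fit, log2 fold changes were 3.56 for EM6. The number called lower was 1 without the labelled double replicate 1, without the labelled triple replicate 2 and without the labelled triple replicate 3. Of 16 embryo and seed maturation regulators, 8 were tested, 3 higher and 3 lower. The MADS-box gene AGL18 (AT3G57390) stood at 12.6, 14.3 and 11.7 CPM in the labelled triple, against 3.45, 3.14 and 4.01 CPM in the labelled double, without overlap (log2 fold change 1.85, SE 0.14, adjusted p = 2.1e-07). The seed dormancy gene DOG1 (AT5G45830) averaged 7.43 CPM in the triple and 2.19 CPM in the double, and AGL15 (AT5G13790), a relative of AGL18, 0.712 CPM in the triple and 0.252 CPM in the double. Lower were the embryo regulator BBM (AT5G17430, 0.232 CPM in the triple and 1.5 CPM in the double), the oil synthesis regulator WRI1 (AT3G54320, 4.01 CPM in the triple and 10.5 CPM in the double) and VAL2 (AT4G32010), a repressor of seed genes (19.9 CPM in the triple and 29.02 CPM in the double), of which WRI1 and VAL2 were chosen after their values were seen. The call of VAL2 was lost with the offset for GC content and length and with that offset and a replicate block (adjusted p 0.88 to 0.88). Of 17 anther and tapetum markers 4 were tested, with 2 called higher and 1 lower, and 5 had no count in either group. The tapetum regulator MYB80 (AT5G56110) had 29 counts in the triple and 1 in the double (37.6-fold [counting interval 6.27 to 1545] higher), the pollen wall gene LAP6 (AT1G02050) averaged 7.7 CPM in the triple and 5.3 CPM in the double and the receptor kinase gene EMS1 (AT5G07280) 3.62 CPM in the triple and 9.01 CPM in the double, and the list summed to 14.2 to 15.7 CPM in the labelled triple and 17.1 to 18.1 CPM in the labelled double. MYB80 reached 0.744, 0.759 and 0.858 CPM in the labelled triple. It averaged 0.27 CPM in emf1, 0.0209 in the labelled double, 0.0201 in WT and 0 in lhp1. It passed the filter only through the labelled triple, so it too had to differ. Log2 fold changes of 6.52 for MYB80 were found without the labelled double replicate 1. The call of LAP6 was lost with upper-quartile scaling, without the labelled double replicate 2 and without the labelled triple replicate 2 (adjusted p 0.057 to 0.086). Calls higher numbered 1 with upper-quartile scaling, in a fit of the 6 libraries alone, without the labelled double replicate 2, without the labelled double replicate 3, without the labelled triple replicate 2 and without the labelled triple replicate 3. Members called lower numbered 2 without the filter, without the labelled double replicate 1, without the labelled double replicate 2, without the labelled triple replicate 1, without the labelled triple replicate 2 and without the labelled triple replicate 3.

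Of 17 clock genes, 7 of 17 tested members were higher and 7 lower (median -0.36). The morning genes LHY (AT1G01060) and CCA1 (AT2G46830) were lower. LHY stood at 27.5, 31.9 and 17.2 CPM in the labelled triple, against 119, 185 and 209 CPM in the labelled double, and CCA1 at 45.5, 43.2 and 34.3 CPM in the labelled triple, against 118, 162 and 158 CPM in the labelled double. The pseudo-response regulator gene PRR7 (AT5G02810) stood at 362, 369 and 324 CPM in the labelled triple, against 156, 147 and 135 CPM in the labelled double, and was higher. In all 3 the groups do not overlap (log2 fold change -2.75, SE 0.31, adjusted p = 4.8e-06 for LHY, and log2 fold change -1.83, SE 0.18, adjusted p = 1.7e-06 for CCA1, and log2 fold change 1.27, SE 0.11, adjusted p = 8.0e-07 for PRR7). Its relative PRR5 (AT5G24470) averaged 15.7 CPM in the triple and 3.1 CPM in the double and the evening gene FKF1 (AT1G68050) 3.07 CPM in the triple and 0.823 CPM in the double. PRR7 was chosen after its values were seen, and the labels give no hour of harvest. Of genes often used as references in expression work, 5 of 10 tested members were higher and 1 lower, 6 of 10 called beside 68% of all loci. The actin gene ACT2 (AT3G18780) averaged 1362 ± 148 CPM in the labelled triple and 707 ± 34.5 CPM in the labelled double, ACT8 (AT1G49240) 516 CPM in the triple and 223 CPM in the double, the ubiquitin gene UBQ10 (AT4G05320) 3161 CPM in the triple and 1468 CPM in the double, AT4G34270 36.6 CPM in the triple and 20.8 CPM in the double and the phosphatase subunit gene PP2AA3 (AT1G13320) 86.7 CPM in the triple and 64.9 CPM in the double. The tubulin gene TUB2 (AT5G62690) was lower (195 CPM in the triple and 254 CPM in the double), and PP2AA3 and TUB2 were chosen after their values were seen. The call of TUB2 was lost with the offset for GC content and length and with that offset and a replicate block (adjusted p 0.25 to 0.27). Lower calls were 4 with upper-quartile scaling, 2 with DESeq2, and 0 with the offset for GC content and length and with that offset and a replicate block.

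**Figure D4:**
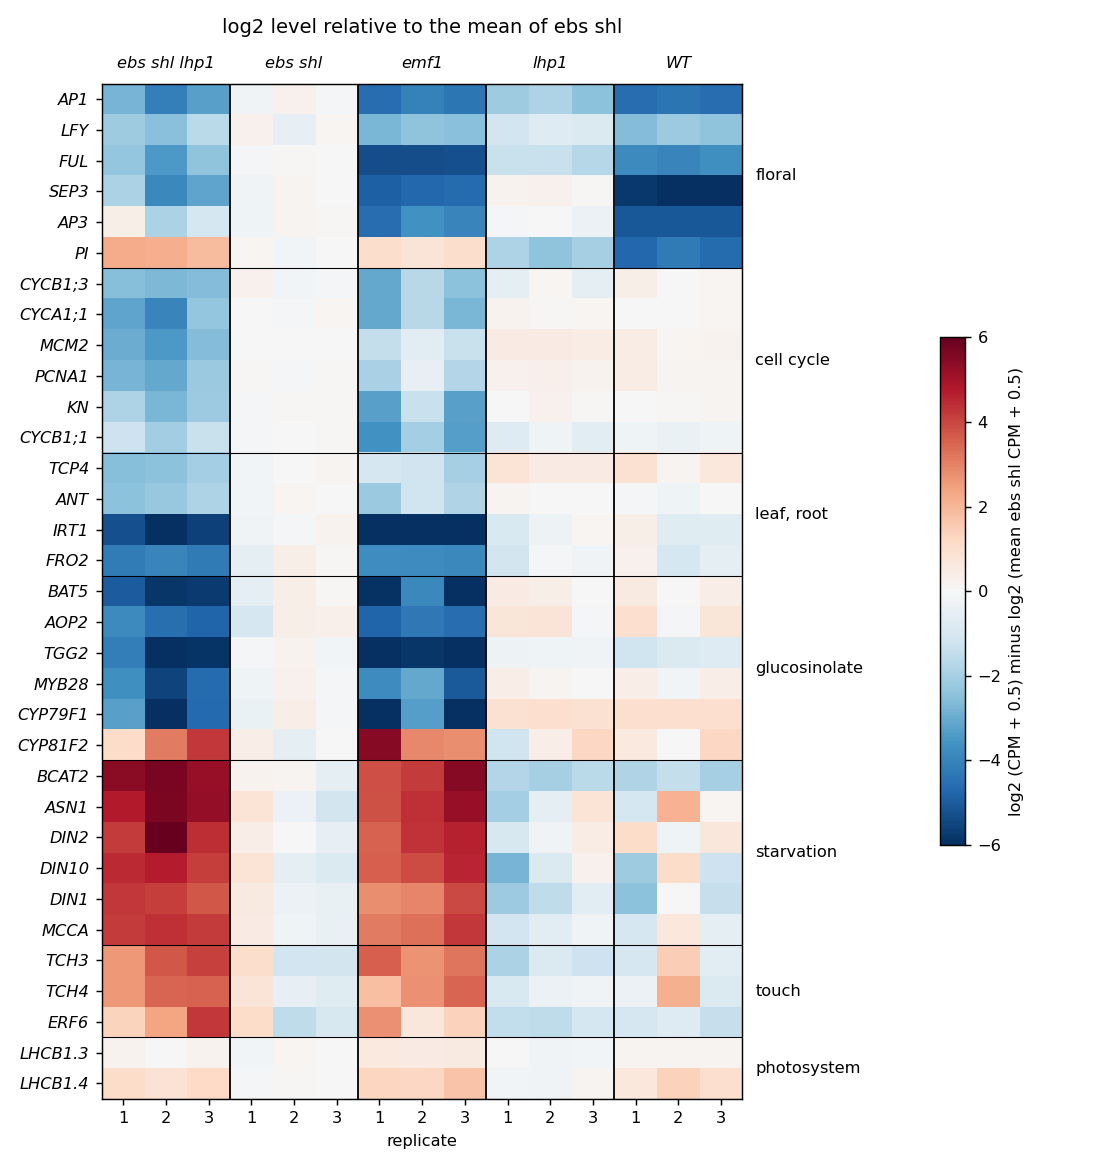
Level of selected genes in all 15 libraries, as log2 (CPM + 0.5) minus the log2 of the mean of ebs shl plus 0.5, with red above and blue below ebs shl and each column a library. Cell cycle, root and most glucosinolate genes are blue and starvation genes red in ebs shl lhp1 and in emf1, which share an RNA kit, while lhp1 and WT resemble ebs shl for them.

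The difference between the labelled triple and the labelled double was set against that between lhp1 and WT, which carries the lhp1 label without ebs shl and does not cross RNA kits. In the test of the difference between these differences, 11645 of 20477 loci (56.9%) passed, 5447 (26.6%) with a higher and 6198 (30.3%) with a lower value in the ebs shl background. Of the 12 highest genes named above, 10 passed that test. BCAT2 differed by 5.54 on the log2 scale between labelled triple and double and by -0.04 between lhp1 and WT. For RTFL21 the values were 5.76 and 3.31 (adjusted p of the difference = 0.61), and for XTH25 5.13 and 1.29 (adjusted p = 0.055). All 12 lowest genes passed it. IRT1 differed by -7.38 and -0.04, and the signs were opposite for WSD1, JAL23, EXT10 and LAC11. The values were -6.95 and 3.32 for WSD1, -6.58 and 3.34 for JAL23, -6.95 and 0.29 for EXT10 and -6.46 and 0.36 for LAC11. For EXT10 and LAC11 the lhp1 and WT libraries overlapped. Among the highest genes the lhp1 difference was also of opposite sign for ASN1 (-1.12), XTR6 (-0.81), DIN2 (-0.79), PDF1.4 (-0.56), BCB (-0.15) and BCAT2. The lhp1 and WT libraries overlapped for each of these highest genes too, so their signs are uncertain. The difference between lhp1 and WT was not tested by itself. The kit changes in the first difference and not in the second, and it cannot be told apart from the effect of background.

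**Figure D5:**
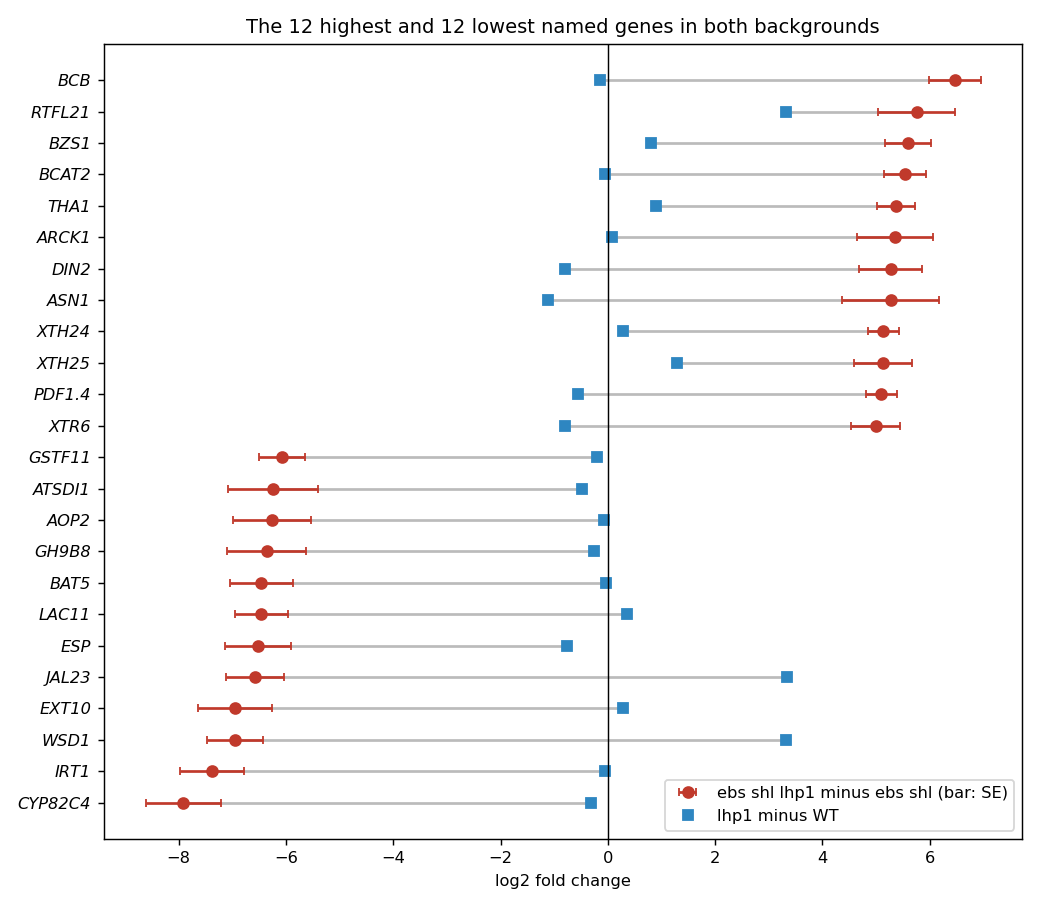
Log2 fold change of the 12 highest and 12 lowest named genes between ebs shl lhp1 and ebs shl (red circles, with SE) and between lhp1 and WT (blue squares). The red circles lie between 4.99 and 6.47 or between -7.91 and -6.07, and most blue squares lie near 0.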

How the data were processed

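Messenger RNA of whole seedlings was sequenced in 15 libraries, 3 for each of 5 labels. The deposited files hold raw read counts, 1 value for each annotated locus and library. The submitters' processing notes name TopHat2 2.1.1, HTSeq, edgeR and the TAIR10 build, and whether counting used strand is not given in the sources used here. The library kit keeps strand, per the labels' protocols. The annotation at hand, TAIR10.1, matched 20457 of the 20477 tested loci and gave names, order, GC content and exon length. As the builds differ, no coordinates or sequences are printed.

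In R 4.3.3 with edgeR 4.0.16, all 15 libraries were filtered with filterByExpr (20477 of 33602 loci kept), scaled with TMM factors and fitted with 1 mean per label, so that all labels share 1 estimate of the spread per locus (common biological coefficient of variation 16.3%). Calls are adjusted p under 0.05 in its quasi-likelihood F test, after Benjamini and Hochberg over all tested loci. Log2 fold changes are the labelled triple over the labelled double. Their SE was derived from the test, as the absolute log2 fold change over the square root of F. It is approximate, above all for genes with few counts. Levels are CPM after TMM scaling, as mean ± SD of 3 libraries. Repeats are biological repeats by the series' design text, and no label says which plants they came from. The p-values rest on the spread between repeats pooled over all 15 libraries. Repeats spanned over 2-fold at more loci in the labelled triple (5.94%) than in the labelled double (1.39%). For genes that vary mainly in the labelled triple, p-values may therefore be too small. Library totals are given in the report. Where the labelled triple or double had no count, a ratio is a bound at 3 counts over the group; with 1 to 3 counts it has an exact 95% interval, covering counting error only.

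The genes named are the 4 mutated genes, the 12 highest and 12 lowest called loci that have a symbol, groups that do not overlap and a mean of 5 CPM or more in 1 group, and up to 4 called members of each of 26 gene lists by size of the difference; other genes are marked as chosen later, and 1 gene is not reported here. The members and lists were chosen with earlier results of these data known. Of the 123 genes that met this rule, 15 overlap a tested gene on the other strand and are uncertain: LHP1, BCAT2, THA1, ARCK1, LAC11, GSTF11, SPL15, SPL5, CLF, LHCB1.5, PSBR, GUN4, HSP17.4, SARD1 and FKF1. BLAST 2.17.0 found a near-identical copy (at 95% identity and 50% coverage) for LHCB1.2. Genes marked as chosen later were not themselves searched for overlaps or copies. Alternatives were RLE and upper-quartile factors, DESeq2 1.42.0, limma 3.58.1 voom with a weight per label, no filter, the 6 libraries alone, a replicate block, the nuclear rRNA loci left out, an offset for GC content and length, and each library left out in turn. The fit was also run on simulated counts with few loci changed and the same spread in every label. That setting differs from these data, so it cannot check the scaling or the shared spread here.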

Additional observations from a re-analysis of the deposited data

Results flagged for a closer look

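For the genes below, the difference between the labelled triple and the labelled double differed from that between lhp1 and WT in edgeR's quasi-likelihood test of the interaction (adjusted p under 0.05 by Benjamini-Hochberg, n = 3 each). The same test passed for 56.9% of all tested loci. Values are the first difference minus the second on the log2 scale.

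LHP1 and EMF1 were among them. LHP1 had a value of 1.04: its transcript was lower in lhp1 than in WT and not in the labelled triple. EMF1 had a value of -1.33. Among the highest genes the values were 6.62 for BCB, 4.80 for BZS1, 5.59 for BCAT2, 4.49 for THA1, 5.28 for ARCK1, 6.06 for DIN2, 6.39 for ASN1, 4.86 for XTH24, 5.65 for PDF1.4 and 5.80 for XTR6. Among the lowest genes they were -7.61 for CYP82C4, -7.33 for IRT1, -10.27 for WSD1, -7.24 for EXT10, -9.92 for JAL23, -5.77 for ESP, -6.82 for LAC11, -6.42 for BAT5, -6.09 for GH9B8, -6.19 for AOP2, -5.76 for ATSDI1 and -5.86 for GSTF11. The RNA kit changes in the first difference and not in the second, and the kit cannot be told apart from the background.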

How the results depend on the processing

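The count of called loci stayed within 1.5 times of 13931 under every alternative run, from 12790 (without the labelled double replicate 3) to 13969 (without the nuclear rRNA loci). DESeq2 gave 13813, limma-voom 13705 and the 6 libraries alone 12926. Without each of the 6 libraries in turn the count was 12790 to 13472. For the interaction it was 10647 to 11502. Deviations of same-numbered libraries of the labelled triple and double had correlations of -0.18, -0.05 and -0.06. Those of differently numbered libraries were -0.08 to 0.14. With 3 libraries a label, these values cannot tell whether the numbers pair the libraries. With the replicate block 13693 loci were called, 6569 higher and 7124 lower, and with the block and the offset for GC content and length 13531, 7944 higher and 5587 lower. Of the 123 genes chosen by rule, 115 kept direction and side of the threshold under all 16 alternatives. Signs turned for LHP1 with upper-quartile scaling (-0.053), for LHCB1.3 with the same scaling (-0.047), and for EBS with the offset (0.0082), with the offset and the block (0.012) and without the labelled double replicate 2 (0.12, interaction 0.049). Without 1 library in turn, EBS ranged from -0.36 to 0.12 and its interaction from -0.43 to 0.049. None of these passed the threshold in the fit with TMM factors. LHP1 and LHCB1.3 passed it with the offset, with and without the block. The cause was not tested. For 83 loci called lower with no count in the labelled triple and 5 called higher with none in the labelled double, depth allows only a bound on the fold change.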
